A study of Mus musculus with 16 samples.

Results

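RNA on tagged ribosomes from sensory neurons with Nav1.8 was compared between female and male mice in 8 of the 16 libraries of the series, 4 female (F1_IP to F4_IP) and 4 male (M1_IP to M4_IP). All mice were naive, aged 8 to 12 weeks, on a C57BL/6J background, and carried Nav1.8Cre and the Rosa26fstrap allele. Each library came from the dorsal root ganglia of 3 pooled mice of one sex, so that 12 of the 24 mice were female, and the 4 pools of a sex are the replicates. The same pools also gave 8 libraries of whole-ganglion RNA (IN), compared by sex in their own fit and, by an interaction, with the IP libraries. The comparison was restricted to autosomes (chromosomes 1 to 19) and to genes with a mean of at least 1 TPM over the 8 IP libraries, which left 15138 genes, 12288 of them protein-coding, of 49158 autosomal gene entries. TPM, the unit of the files, are abundances per transcript length that sum to a constant in every library, so the read depth behind a value is unknown. Values below are TPM scaled between the 8 libraries, and differences are female minus male on the log2(scaled TPM + 1) scale with the standard error (SE) of limma's fit.

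The dorsal root ganglia hold the cell bodies of sensory neurons, surrounded by satellite glia and Schwann cells. Nav1.8, encoded by Scn10a, is a voltage-gated sodium channel of pain-sensing neurons (nociceptors). Where Cre under this promoter has acted, neurons make the ribosomal protein L10a fused to EGFP. Pulling down EGFP then brings along ribosomes with the RNA on them (translating ribosome affinity purification). Cre driven by the Scn10a promoter marks neurons that expressed Scn10a at any stage, which include most nociceptors and some touch neurons. Nociceptors carry receptors for prostaglandins, lipid mediators made from arachidonic acid that sensitise these neurons during inflammation, and the series title names prostaglandin signalling of both sexes as its subject.

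The library of female pool 2 stood apart before any gene was compared. Protein-coding genes held 44.9% of its TPM and 57.6% in female pool 4, against 61.6% to 79.5% in the other 6 libraries. Mitochondrial transcripts held 5.04% in female pool 2 and 4.84% in female pool 4, against 0.238% to 1.39% elsewhere. The correlation of its log2 values with the mean of the IN libraries, across 15138 genes that are not independent replicates, was 0.938, against 0.850 to 0.890 for the other 7. The mean protein-coding share was 63.5% ± 15.2 in female and 70.4% ± 7.63 in male libraries (SD, n = 4 each), a difference with p = 0.486 in a two-sided exact permutation test whose smallest possible p is 0.0286. The main results are therefore also given without female pool 2. Genes outside the comparison matched the sex labels in all 8 libraries, with the Y-linked Ddx3y at 22.9 to 30.9 in male and at most 0.00562 in female libraries.

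No autosomal gene passed an adjusted p of 0.05 between female and male ribosome-bound RNA (limma, Benjamini-Hochberg, two-sided, 0 of 15138 genes), and none did without female pool 2. The smallest adjusted p was 0.0929 with 8 libraries and 0.311 with 7. At an unadjusted p under 0.05 there were 354 genes, which is 2.34% of those tested, 203 (1.34%) higher in female and 151 (0.997%) higher in male libraries. Without female pool 2 there were 330 (2.18%), and 194 genes were in both sets with the same direction. In 251 genes (1.66%) the 4 female and 4 male values did not overlap, 134 (0.885%) with female above male and 117 (0.773%) the other way. With the deposited TPM and no scaling between libraries the split was 32 to 98, and the median difference over all genes moved from 0.00 to -0.11. The median half-width of a gene's 95% interval was 0.29 on the log2 scale. For 14303 genes (94.5%) the whole interval lay within 1 log2 unit of 0. As 1 is added before the log, 1 unit on this scale is clearly more than 2-fold in TPM for genes at low levels. For such genes a 2-fold difference can lie inside an interval of this width. Only 50 genes had a difference of at least 1 log2 unit, 27 higher in female and 23 higher in male libraries, and in 3 of them (Srd5a2, Gtpbp4 and the antisense RNA 6330562C20Rik) the sexes did not overlap. Srd5a2 and 6330562C20Rik met the minimum mean of 1 TPM only through the sex with the higher level. In these bulk samples fewer cells of a type and less RNA per cell cannot be told apart.

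**Figure D1:**
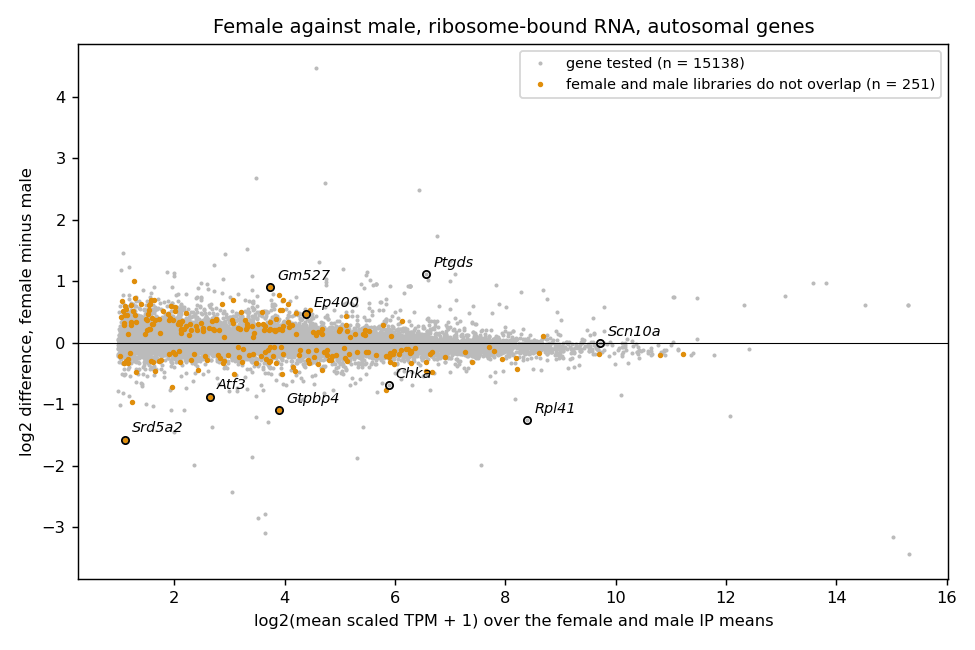
Log2 difference between female and male ribosome-bound RNA (y axis, female minus male) against the mean level (x axis, log2 of the mean scaled TPM with 1 added) for the 15138 autosomal genes tested, with the 251 genes whose sexes do not overlap in orange. Most genes lie close to 0, Srd5a2 stands below at -1.57, and Scn10a lies at -0.01.

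Scn10a, the gene whose promoter drove Cre, was at 869, 623, 997 and 897 in female pools 1 to 4 and at 797, 828, 853 and 889 in male pools 1 to 4. The male values lay within the range of the female ones, with the lowest level in female pool 2 (difference -0.01 ± 0.15, 95% interval -0.34 to 0.32, adjusted p = 1.0, and 0.13 without that library). Rpl10a, which encodes the ribosomal protein used as the tag, was at 272 to 363 in female and 178 to 372 in male libraries, and reads of the transgene and of the native gene cannot be told apart in these values.

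Srd5a2 encodes steroid 5-alpha-reductase type 2, which turns testosterone into dihydrotestosterone. It lies on the minus strand of chromosome 17 (74017706 to 74047916, GRCm38; ENSMUSG00000038541.7). It was listed at 0 in female pools 1, 3 and 4 and at 0.254 in female pool 2, and stood at 2.32, 3.42, 1.92 and 1.31 in male pools 1 to 4. Every male library was above every female one at a low level, just over the filter on low values. That filter was met only through the male libraries (mean 2.24, against 0.0634 in female libraries). A gene as low in both sexes as this one in female libraries would not have been tested. The difference was -1.57 ± 0.20 (95% interval -2.03 to -1.12, adjusted p = 0.199) and -1.70 ± 0.21 without female pool 2. It passed with the deposited TPM (adjusted p = 0.00103) and with a weight per library (0.0244), and over all alternatives its adjusted p ranged from 0.00103 to 1.0. Its size depended on the constant added before the log, at -4.01 with 0.1 and -0.51 with 5. In whole-ganglion RNA of the same pools it was at most 0.0851 in female and 0.613 to 1.25 in male libraries (difference -0.89 ± 0.09, adjusted p = 0.0654), so its sexes did not overlap in either fraction. The related Srd5a1 and Srd5a3 were at 8.77 and 39.5 in female and 7.44 and 37.0 in male libraries (group means), with differences of 0.22 and 0.09.

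Gm527, a predicted protein-coding gene on the plus strand of chromosome 12 (64917906 to 64924592; ENSMUSG00000047227.5), had the smallest p of all genes, and is named for that after its values were seen. Its level was 15.2, 16.1, 17.4 and 16.5 in female pools 1 to 4 and 7.71, 8.89, 7.19 and 9.19 in male pools 1 to 4. The sexes were well apart and each was tight, with a mean 1.98 times higher in female libraries (16.3 ± 0.89 against 8.25 ± 0.949, SD, n = 4 each). The difference was 0.91 ± 0.10 (95% interval 0.69 to 1.13, adjusted p = 0.0929) and 0.92 ± 0.11 without female pool 2. It passed with all chromosomes in the fit (adjusted p = 0.0162) and with library weights (0.0244), and its adjusted p ranged up to 1.0 over the alternatives. In whole-ganglion RNA the sexes overlapped, at 3.39 to 4.21 in female and 2.42 to 4.12 in male libraries (difference 0.29 ± 0.13).

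The sequences upstream of these 2 genes are shown because they were the genes with the smallest p in each direction. They are the bases of the RefSeq promoter window (GRCm38.p6) that lie before the first base of the gene, 5′ to 3′ on the gene's strand, chr17:74047917-74048110 (minus) for Srd5a2 and chr12:64917661-64917905 (plus) for Gm527.
Srd5a2: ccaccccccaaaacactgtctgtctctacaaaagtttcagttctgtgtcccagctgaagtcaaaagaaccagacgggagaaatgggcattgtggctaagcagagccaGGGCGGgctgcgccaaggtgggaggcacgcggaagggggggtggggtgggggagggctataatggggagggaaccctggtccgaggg
Gm527: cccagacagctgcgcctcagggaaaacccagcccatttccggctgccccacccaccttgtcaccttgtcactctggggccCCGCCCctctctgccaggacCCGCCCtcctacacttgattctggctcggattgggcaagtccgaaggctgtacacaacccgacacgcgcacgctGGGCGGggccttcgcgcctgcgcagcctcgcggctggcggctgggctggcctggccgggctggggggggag
Capitals mark GC boxes (GGGCGG on either strand), of which the stretch of Srd5a2 held 1 and that of Gm527 held 3. A GC box was in 32.7% of the 32851 RefSeq windows of 250 bases before a gene's start. The oestrogen response element (GGTCA and TGACC with 3 bases between them, 0.0639% of windows), the androgen response element (AGAACA and TGTTCT with 3 bases between them, 0.00913%), the AP-1 site TGACTCA (4.46%) and the cyclic AMP response element TGACGTCA (1.55%) were searched on both strands. None of these 4 was in either stretch. Of the 25 genes described in this and the next paragraphs as having the smallest p, 20 had a window, 14 of these held a GC box, 1 (Necab2) the AP-1 site and 0 any of the other 3. The 32851 windows are not limited to the genes tested, whose own share was not counted. The 14 of 20 can therefore not be read against the 32.7%. A match of letters is a description and not a binding site.

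Among the 12 genes with the smallest p that were higher in female libraries, none passed the adjusted threshold, and in 11 the sexes did not overlap. These 12 and the 12 of the other direction were chosen by their p, so these counts describe the choice, and all 24 kept their sign and an unadjusted p under 0.05 without female pool 2. Map3k1, a kinase upstream of JNK signalling, was at 16.2, 14.8, 20.5 and 18.0 in female and 11.1, 12.9, 11.5 and 11.3 in male pools (0.53 ± 0.11, 0.60 without female pool 2). Zmym1, a zinc finger gene, was at 15.9 to 20.8 in female and 8.45 to 14.4 in male libraries (0.69 ± 0.16). Lime1, an adaptor of Src family kinases, was at 6.71 to 8.83 and 4.09 to 6.17 (0.62 ± 0.13), but its entry overlaps that of Zgpat on the same strand and its value is uncertain. Ep400, the ATPase of the TIP60 chromatin remodelling complex, was at 23.99, 25.3, 25.1 and 18.96 in female and 15.9, 16.3, 16.5 and 17.6 in male pools (0.46 ± 0.10). The lowest female value was in pool 4 and still above the highest male one. The chromatin readers Mllt10 (0.50 ± 0.13) and Zmynd8 (0.43 ± 0.11) stood at 10.5 to 14.9 against 7.89 to 9.96, and at 31.4 to 39.6 against 24.1 to 31.8. The sexes overlapped in Zmynd8, the only one of the 12 where they did.

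Adra2b, the alpha-2B adrenergic receptor gene, was at 2.23, 1.37, 1.43 and 2.27 in female and 0.785, 1.12, 0.724 and 0.674 in male pools (0.62 ± 0.16). Necab2, a neuronal calcium-binding protein gene that also stands on the list of large-diameter neurons, was at 8.26 to 11.3 in female and 5.53 to 7.94 in male libraries (0.50 ± 0.13). Pan2, the nuclease that shortens poly(A) tails, was at 6.2 to 7.25 and 4.56 to 5.29 (0.37 ± 0.09). These 3 genes kept their direction without female pool 2, with 0.71, 0.46 and 0.33. Samhd1, which breaks down deoxynucleotides, was at 16.4 to 20.6 in female and 13.4 to 14.8 in male libraries (0.34 ± 0.09), and Dopey2 at 69.8 to 80.3 and 55.6 to 64.9 (0.35 ± 0.09). Pcdha8, a protocadherin of the alpha cluster, was at 1.27 to 2.01 and 0.462 to 0.837 (0.68 ± 0.14), but its entry overlaps those of other genes of the cluster, which share exons, and its value is uncertain. Adra2b and Pcdha8 met the filter on low values only through the female libraries, and at their male level in both sexes they would not have been tested.

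Among the 12 genes with the smallest p that were higher in male libraries, Srd5a2 included, none passed the adjusted threshold, and in 11 the sexes did not overlap. Gtpbp4, a GTPase of ribosome assembly in the nucleolus, was at 8.91, 7.65, 7.18 and 9.59 in female and 20.9, 11.7, 24.7 and 20.3 in male pools. All male values were above all female ones, and the male mean was 2.33 times higher (-1.09 ± 0.20, -1.06 without female pool 2, adjusted p = 1.0). In whole-ganglion RNA its levels overlapped, at 1.70 to 2.33 in female and 1.82 to 2.41 in male libraries. Tbl3, also of ribosome assembly, was at 13.0 to 15.98 in female and 17.4 to 21.1 in male libraries (-0.40 ± 0.10), and Eif5, an initiation factor that acts on the scanning ribosome, at 70.6 to 85.5 and 91.3 to 134 (-0.46 ± 0.12). The list of 47 tested genes of translation control does not hold Eif5. It had a median of 0.01, with 0 genes at an unadjusted p under 0.05, against 2.34% of all genes.

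Thrb, a thyroid hormone receptor gene, was at 3.17 to 3.76 in female and 4.49 to 6.35 in male libraries (-0.44 ± 0.12), and Crym, whose product binds thyroid hormone, at 4.72 to 6.89 and 7.73 to 10.4 (-0.51 ± 0.13). Both kept this direction without female pool 2, with -0.45 and -0.43. Pde8b, a phosphodiesterase of cyclic AMP, was at 8.93 to 14.7 and 16.1 to 19.4 (-0.52 ± 0.14). Hoxd10, a homeobox gene of positional identity, was at 1.23 to 2.83 and 3.15 to 5.23 (-0.73 ± 0.19), Serpina3c, a protease inhibitor gene, at 1.59 to 1.68 and 2.29 to 3.02 (-0.46 ± 0.11), and Crtac1 at 17.3 to 23.4 and 26.2 to 31.6 (-0.44 ± 0.11). Chka, the choline kinase gene of membrane lipid synthesis, was at 35.0, 39.0 and 38.5 in female pools 1 to 3, but at 68.7 in female pool 4, inside the male range of 68.6 to 72.5. Its difference of -0.68 ± 0.19 (adjusted p = 1.0) became -0.90 ± 0.07 (adjusted p = 0.0124) without female pool 4, and over all alternatives its adjusted p ranged from 0.0124 to 1.0. Female pool 4 was the only female library inside the male range, so nothing is read from the p without it.

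**Figure D2:**
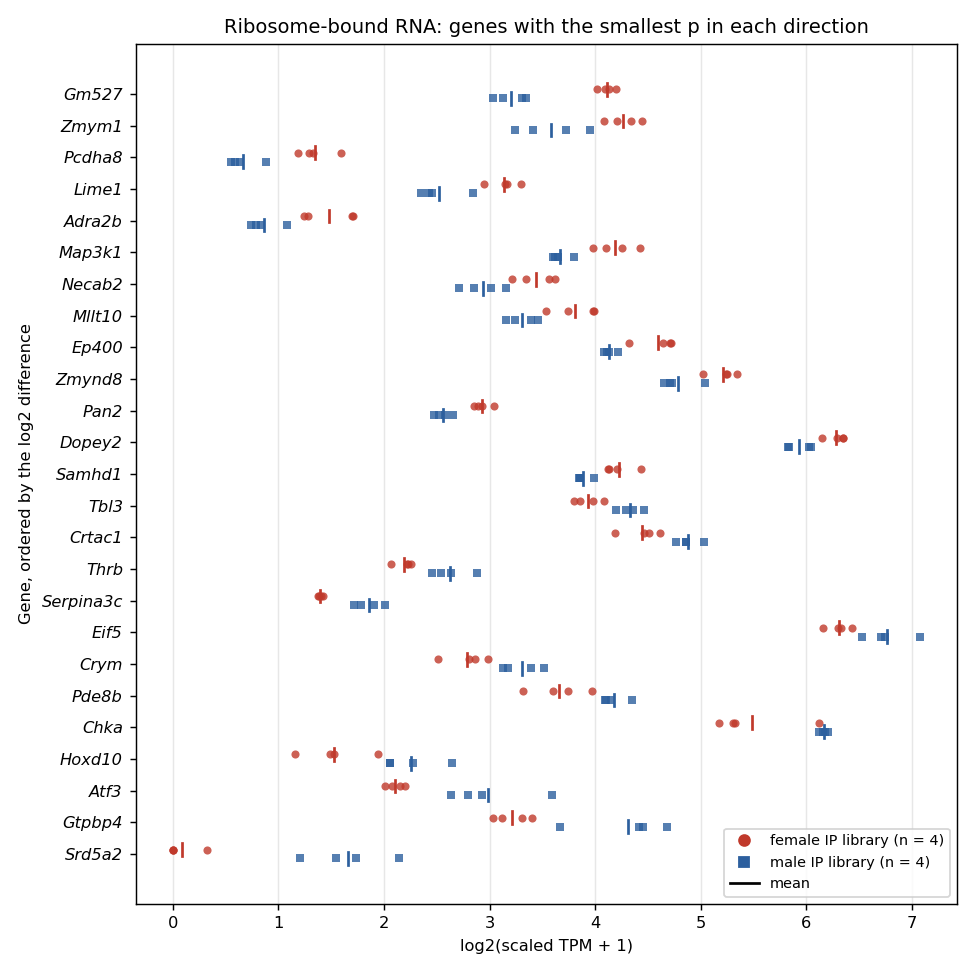
Level in each IP library (x axis, log2 of scaled TPM with 1 added) of the 24 genes with the smallest p, 12 per direction, and of Gm527. Circles are female and squares male libraries, and vertical bars the group means. The sexes overlap only in Zmynd8 and Chka, and the 3 lowest points of all are the female libraries with Srd5a2 at 0.

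Genes of prostaglandin synthesis and breakdown were tested for 10 of 19 listed, and the other 9, among them both cyclooxygenase genes (Ptgs1, Ptgs2), were under the filter on low values. Ptgds, the synthase of prostaglandin D2, lies on the minus strand of chromosome 2 (25466709 to 25470046; ENSMUSG00000015090.13). It was at 57.3, 317, 74.4 and 95.7 in female pools 1 to 4 and at 62.8, 38.3, 66.0 and 35.4 in male pools 1 to 4. The highest value was in female pool 2, the library nearest to whole-ganglion RNA, and the lowest female value was below 2 of the 4 male values. The mean was 136 ± 122 in female and 50.6 ± 16 in male libraries (SD, n = 4 each), with a difference of 1.12 ± 0.48 (95% interval 0.03 to 2.21, p = 0.0455, adjusted p = 1.0) and p = 0.0857 in the exact permutation test. Without female pool 2 the female mean was 75.8 ± 19.2 (n = 3) and the difference 0.60 ± 0.26, and without female pools 2 and 4 it was 0.42. Ptgds was more abundant in the whole ganglion, at 173 to 300 in female and 71.9 to 205 in male libraries on that fraction's own scale, where the difference was 0.57 ± 0.32 (adjusted p = 0.964). The sexes overlapped in both fractions. The summed level of the fibroblast and leptomeningeal markers, 20 genes of cells outside the neurons, was also highest in female pool 2 (1198, against 381 to 814 elsewhere). Its part in the Ptgds difference was not tested.

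The other 9 tested genes of synthesis and breakdown had differences between -0.18 and 0.18, and the list median was -0.04 (0.01 without female pool 2, 0.00 over all genes). Of the 10, 1 (Ptgds) had an unadjusted p under 0.05, against 2.34% of all genes. The prostaglandin E synthases Ptges, Ptges2 and Ptges3 had differences of 0.18 ± 0.20, 0.01 ± 0.14 and -0.08 ± 0.11. Without female pool 2 these were 0.02, 0.02 and 0.01. Ptges3 was by far the most abundant (173 to 243 in female, 197 to 236 in male libraries). Cbr1, a carbonyl reductase acting on prostaglandins, was at 67.3 to 91.6 and 80.2 to 98.6 (-0.18 ± 0.11, -0.11 without female pool 2), and the exporter gene Abcc4 at 15.5 to 19.97 and 15.01 to 18.1 (0.08 ± 0.10).

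Prostaglandin receptors were tested for 9 of 10 listed, and none had an unadjusted p under 0.05, against 2.34% of all genes. In order of the female mean these were Ptger3 (94.9, a receptor of prostaglandin E2), Ptgdr (60.3, of prostaglandin D2) and Ptgir (51.9, of prostacyclin), then Ptger1 (11.9), Ptgfrn (7.496, a protein partner of a receptor), Ptger4 (5.21), Ptgfr (4.84), Tbxa2r (1.77) and Ptger2 (1.19). The female libraries overlapped between the neighbours Ptgdr and Ptgir, Ptger4 and Ptgfr, and Tbxa2r and Ptger2, and the other neighbours were apart. Ptgir was at 56.8, 44.4, 57.4 and 48.8 in female and 60.3, 61.6, 58.2 and 58.9 in male pools. The sexes did not overlap, though the gap was small (-0.21 ± 0.09, 95% interval -0.42 to 0.01, and -0.14 without female pool 2). The thromboxane receptor gene Tbxa2r was at 1.34, 2.55, 1.38 and 1.82 in female and 0.997, 1.19, 1.23 and 1.26 in male pools, without overlap (0.34 ± 0.15, 95% interval -0.01 to 0.68, and 0.21 without female pool 2). The difference was -0.02 ± 0.09 in Ptgdr and 0.06 ± 0.16 in Ptger3 (0.05 and 0.20 without female pool 2). For the 18 tested prostaglandin genes other than Ptgds every 95% interval held 0 and lay between -0.55 and 0.68. Of 28 tested genes downstream of these receptors (G proteins, adenylyl cyclases, protein kinase A, phosphodiesterases) 1 had an unadjusted p under 0.05, against 2.34% of all genes. It was the cyclic AMP phosphodiesterase gene Pde4b at 7.29 to 9.83 in female and 5.75 to 7.43 in male libraries (0.37 ± 0.12).

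**Figure D3:**
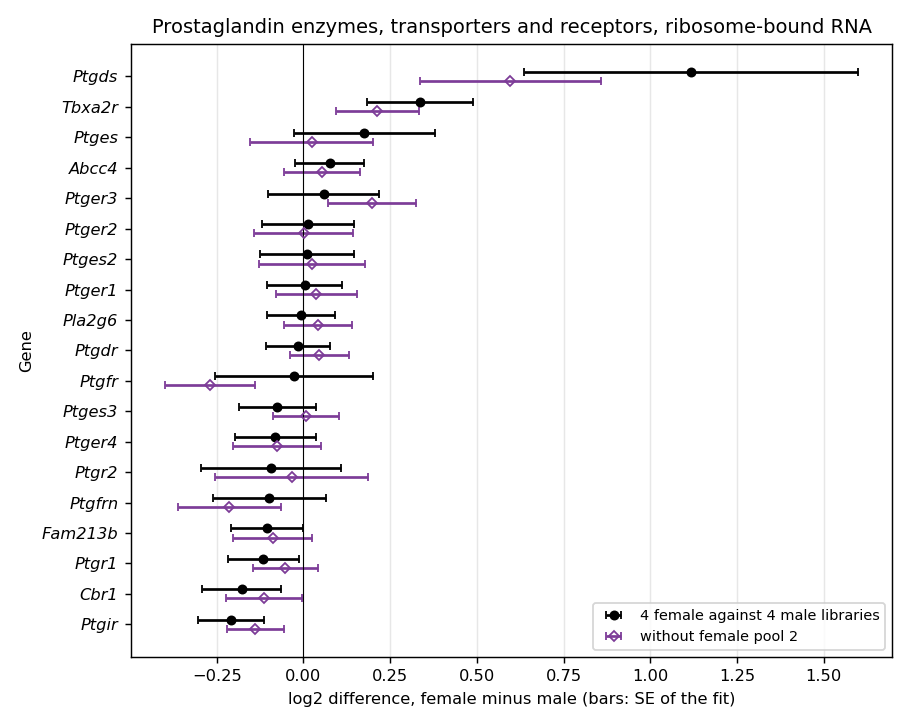
Log2 difference between female and male ribosome-bound RNA (x axis, bars are the SE of the fit) for the 19 tested genes of prostaglandin synthesis, breakdown, transport and reception, with all 8 libraries (filled) and without female pool 2 (open). Ptgds moves from 1.12 to 0.60 when that library is left out, and the other 18 lie between -0.21 and 0.34 with all libraries.

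In the list of steroid and prolactin signalling 24 of 31 genes were tested, 2 with an unadjusted p under 0.05 (1 in each direction, against 2.34% of all genes in either), and the median was 0.10 (0.02 without female pool 2). Beside Srd5a2 this was the coactivator gene Ncoa3, at a mean of 13.8 in female and 10.7 in male libraries (0.34). The receptor genes themselves had smaller or less certain differences. The oestrogen receptor gene Esr1 had means of 4.26 and 4.43 (-0.06), Esr2 of 1.26 and 0.930 (0.27), the progesterone receptor gene Pgr of 1.28 and 1.22 (0.04), and the prolactin receptor gene Prlr of 2.13 and 1.90 (0.13, but -0.02 without female pool 4 and -0.07 without male pool 2). Without female pool 2 the difference was -0.18 in Esr1 and -0.03 in Pgr. The glucocorticoid receptor gene Nr3c1 was at 13.5, 30.4, 22.5 and 19.6 in female and 17.3, 11.7, 12.0 and 18.3 in male pools, with overlap (0.48 ± 0.24, and 0.30 without female pool 2).

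Genes of activity and nerve injury were tested for 21 of 26 listed, and 3 had an unadjusted p under 0.05, each higher in male libraries (0.997% of all genes were), while without female pool 2 there were 2. The list median was -0.08, and -0.06 without that library. Atf3, a transcription factor gene induced in injured sensory neurons, was at 3.45, 3.58, 3.20 and 3.02 in female and 5.93, 5.20, 6.62 and 11.01 in male pools. Every male value was above every female one (-0.88 ± 0.19, 95% interval -1.31 to -0.44, -0.91 without female pool 2), and this was also so in whole-ganglion RNA (0.923 to 1.05 against 1.32 to 1.94, difference -0.37 ± 0.08). Ecel1, an endopeptidase-like gene induced by nerve injury, was at 0.374, 0.671, 0.676 and 0.255 in female and 1.92, 0.724, 1.55 and 4.57 in male pools (-0.97 ± 0.32). Sprr1a, a growth-associated gene of regenerating axons, was at 0.808, 0.101, 0 and 0 in female and 1.21, 0.237, 1.03 and 4.88 in male pools, with overlap (-1.01 ± 0.43). Its unadjusted p by limma was 0.0442, and 0.0814 without female pool 2. All 3 genes were highest in male pool 4. Ecel1 and Sprr1a met the filter on low values only through the male libraries (means 2.19 and 1.84, against 0.494 and 0.227 in female libraries). The 3 of 21 can therefore not be read against the 0.997%. Of the immediate early genes, Fos had a difference of 0.18, and Nr4a1 one of 0.22 that turned to -0.06 without female pool 2, whose level of 5.16 was above those of the other female pools (1.44 to 2.66).

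Neuropeptides were tested for 14 of 21 listed. Of these, 3 had an unadjusted p under 0.05, each higher in male libraries (0.997% of all genes were), and 0 did without female pool 2. Their median was -0.18 and 12 of the 14 were lower in female libraries (-0.11 and 12 without female pool 2), while over all genes the median was 0.00 and 7367 of 15138 were lower. Tac1, the substance P gene, was at 350, 467, 645 and 493 in female and 638, 620, 621 and 670 in male pools, with female pool 3 inside the male range (-0.42 ± 0.17). Vgf, a secreted neuropeptide precursor, was at 70.9 to 121 and 112 to 191 (-0.48 ± 0.20). The lowest of these was female pool 2, without which the difference was -0.30 (limma unadjusted p = 0.0437 with it and 0.0965 without). Sst, the somatostatin gene, was at 36.0, 20.7, 36.8 and 11.7 in female and 20.8, 25.7, 7.75 and 22.1 in male pools (0.43 ± 0.43). Its spread within a sex was larger than the difference between them.

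Ion channel lists had medians close to 0. Against 2.34% of all genes, an unadjusted p under 0.05 was found in 0 of 15 sodium channel genes (median 0.03), 0 of 23 TRP, ASIC and Piezo genes (0.01), 0 of 41 potassium channel genes (-0.02) and 1 of 19 calcium channel genes (0.00). That 1 gene was Cacna1e, a calcium channel pore subunit, at 10.1, 10.1, 9.89 and 9.90 in female and 12.1, 10.5, 12.8 and 11.7 in male pools (-0.21 ± 0.08). Cytosolic ribosomal protein genes had a median of -0.03 over 75 genes, with Rps28 at 136 to 217 in female and 201 to 287 in male libraries (-0.55 ± 0.16). Rpl41 was at 78.7 and 74.9 in female pools 1 and 2 but 445 and 377 in pools 3 and 4, and at 402 to 460 in male libraries. Of 21 pathway lists, 19 had a median between -0.1 and 0.1, and 20 did without female pool 2. Over the 735 tested genes of all 34 lists, 8 had an unadjusted p under 0.05 with female higher and 13 with male higher. Together these are 2.86%, near the 2.34% of all genes, where the split was 203 to 151.

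Markers of cell types show what the libraries held. All 36 nociceptor genes were tested, with a median of -0.04 (0.05 without female pool 2), and their summed level was 10451 in female pool 2, against 12830 to 14835 in the other female and 13379 to 14194 in the male libraries. Markers of non-neuronal cells were present in every library. Of their 9 lists, 8 had their highest summed level in female pool 2. The list of non-myelinating Schwann cells was lowest there (733, against 769 to 917 elsewhere). Much of that sum was Ngfr, at 407 in female pool 2 and 460 to 593 elsewhere. Ngfr had means of 485 (female) and 572 (male) in IP, against 53.9 and 61.0 in IN on that fraction's own scale. Sostdc1 of the same list was highest in female pool 2 (5.51, against 1.13 to 2.61 elsewhere). The sum of this list is therefore not read as the level of a cell type. The summed level of satellite glia markers was 1572 in female pool 2 and 891 to 1374 elsewhere, and that of myelinating Schwann cells 2491 and 998 to 1917. That of macrophages was 113 and 29.6 to 58.5, and that of skeletal muscle 593 and 15.3 to 135. Of the 14 blood genes 2 were at 0 in all 8 libraries, and in the other cell type lists no autosomal marker was.

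The direction of 9 of the 13 cell type lists turned when this library was left out. In myelinating Schwann cell genes the median was 0.13 with 15 of 16 higher in female libraries, and -0.23 with 0 of 16 without it. Skeletal muscle genes went from 0.40 (12 of 12 higher) to -0.46 (1 of 12), and satellite glia genes from 0.25 (13 of 17) to -0.07 (4 of 17). Macrophage genes kept a positive median (0.30 and 0.05), as did fibroblast and leptomeningeal genes (0.44 and 0.15) and blood genes (0.50 and 0.19). None of the 13 lists had a gene past the adjusted threshold. Igfbp6, a fibroblast gene, was at 12.1, 33.2, 12.7 and 14.997 in female and 9.08, 10.6, 10.7 and 7.27 in male pools, without overlap (0.78 ± 0.29, and 0.46 without female pool 2).

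**Figure D4:**
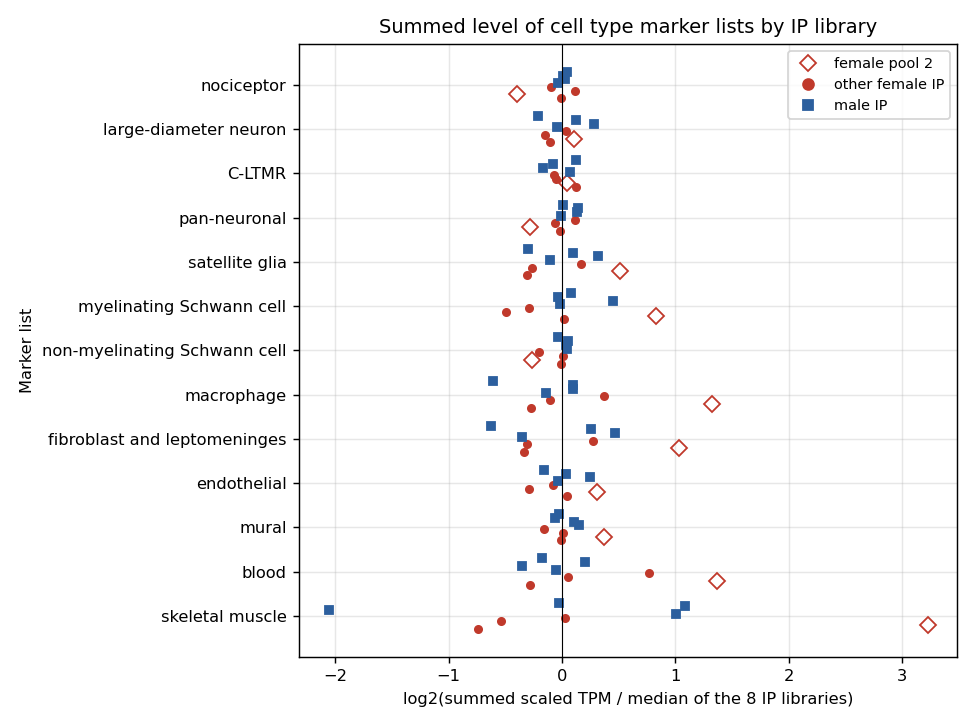
Summed scaled TPM of 13 marker lists in each IP library, as the log2 ratio to the median of the 8 libraries (x axis). Female pool 2 (open diamond) is lowest for nociceptor genes and highest for satellite glia, myelinating Schwann cell, macrophage, fibroblast, blood and skeletal muscle genes.

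The same pools were compared in whole-ganglion RNA, where no gene passed either (limma, 0 of 15138, smallest adjusted p = 0.0654), 730 genes (4.82%) had an unadjusted p under 0.05 and 414 (2.73%) no overlap between the sexes. Over all genes 59.3% had the same sign in both fractions, which come from the same pools, and of the 24 genes with the smallest p in ribosome-bound RNA 14 did. Of these 24, 5 had an unadjusted p under 0.05 in the same direction in whole-ganglion RNA, and in 15 the difference between fractions, tested as the interaction of sex and fraction with the pool as a block, had an unadjusted p under 0.05 (2.81% of all genes did). The interaction holds the same difference in ribosome-bound RNA by which the 24 were chosen, so nothing is read from that count. It was fitted with all 16 libraries scaled together and can differ from the gap between the differences of both fractions. The interaction passed for 1 gene (0.00661%), Ep400. It lies on the minus strand of chromosome 5 (110664373 to 110770717; ENSMUSG00000029505.17) and overlaps the short entry Gm26079. In whole-ganglion RNA Ep400 was at 6.12, 6.39, 6.37 and 5.83 in female and 8.53, 9.07, 9.72 and 9.04 in male pools. There the female values were below all male ones (-0.49 ± 0.05), while in ribosome-bound RNA they were above. The interaction was 0.96 ± 0.09 (limma adjusted p = 0.0276). With any 1 of the 8 pools left out it was 0.92 to 1.01, and its adjusted p stayed under 0.05 only without female pool 4 (0.0126) and was 0.0744 to 0.238 without any other pool. With the deposited TPM it was 0.71 (adjusted p = 0.771). Of 18 tested members of the TIP60 complex, 1 (Ep400 itself) had an unadjusted p under 0.05 in ribosome-bound RNA, against 2.34% of all genes. The list median was 0.02.

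**Figure D5:**
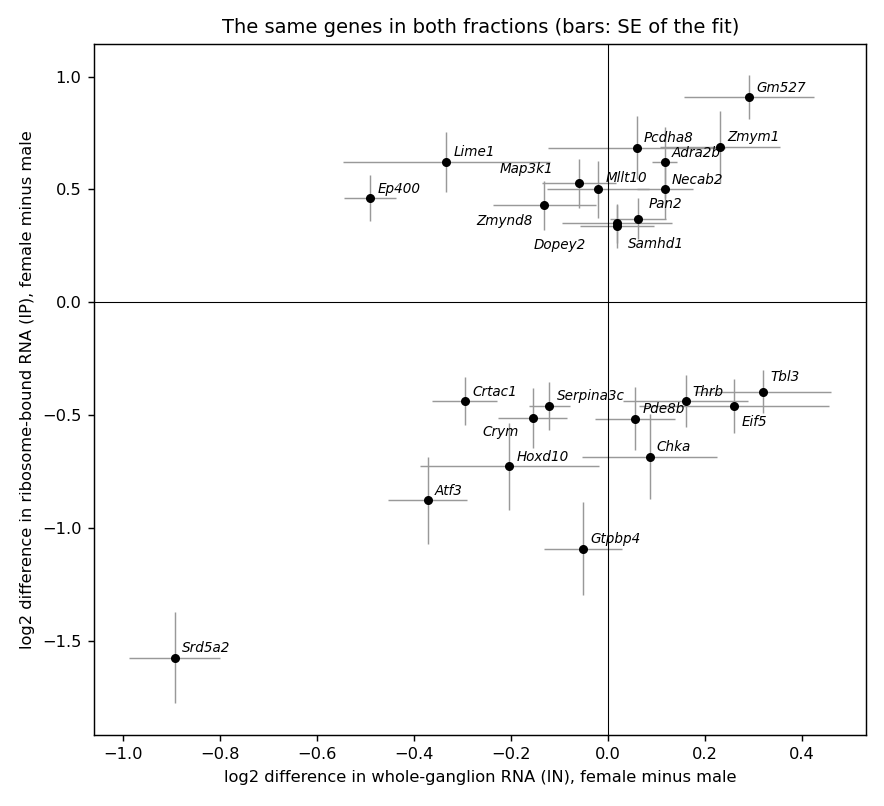
Difference between female and male libraries in ribosome-bound RNA (y axis) against that in whole-ganglion RNA of the same pools (x axis), log2 with bars for the SE of each fit, for the 24 genes with the smallest p and Gm527. Srd5a2 and Atf3 lie to the lower left, lower in female libraries in both fractions, and Ep400 lies at 0.46 and -0.49. With 1 added before the log, low levels draw a difference towards 0, and these genes were lower in whole-ganglion RNA. Sizes on both axes are therefore not compared.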

How the data were processed

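Total and ribosome-bound RNA of 16 mouse ganglion libraries was sequenced after depletion of ribosomal RNA (Illumina total RNA Gold, per the labels' protocols). The submitters' processing notes name STAR 2.2.1, StringTie 1.3.5, FastQC and the build GRCm38.p5. No source used here gives the annotation release or the strand setting, so reads of overlapping genes on opposite strands cannot be told apart, and values of genes that overlap on the same strand are uncertain. Of the 24 genes with the smallest p, 3 overlap another entry of at least 1 TPM on their own strand (Pcdha8, Lime1, Ep400) and 4 on the opposite strand only (Zmym1, Dopey2, Mllt10, Pde8b). The deposited values were read as TPM because they sum to 1000000 in each library. They hold no read counts, so count tests were not used and the depth per sample is unknown.

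Entries of one gene ID were summed and the 92 ERCC spike-in entries left out. TPM of the 8 IP libraries were scaled by the median of ratios over the tested genes (factors 0.747 to 1.19), IN libraries separately. For the interaction all 16 libraries were scaled together, so it is not the plain gap between the IP and IN differences. In Srd5a2 it was 0.54, while those differences were -1.57 and -0.89. The fits used limma 3.58.1 under R 4.3.3 (eBayes with a trend, 4 libraries per sex, Benjamini-Hochberg, 0.05, pseudocount 1), and intervals are at 95%. The fit was tested on simulated data. No pair of libraries held identical values (0). Exact permutation tests were two-sided. Gene types came from GENCODE M21 and promoters from RefSeq. Python 3.11.15 with matplotlib 3.10.9 drew the figures.

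Genes were named by a rule, as the 12 per direction with the largest difference among those passing without overlap and with a proper symbol, completed by the smallest p where too few passed (here all), the tested prostaglandin genes, up to 4 extremes of each other list, Scn10a and Rpl10a. Not every gene the rule allows is named. Gm527, 6330562C20Rik, Srd5a1, Srd5a3, Ncoa3, Esr1, Esr2, Pgr and Prlr fall outside it and were chosen after their values were seen. The comparison and the 34 lists (815 symbols, 812 matched by symbol and 3 by a synonym) were chosen with earlier results of these data known.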

Additional observations from a re-analysis of the deposited data

Results flagged for a closer look

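In the 178 groups of 4 libraries examined (each marker list, each composition share, each tested prostaglandin gene and each other autosomal gene with a level or difference in the text, in each sex), 15 held a library set apart from the other 3 by Dixon's gap test, of which 7 were female pool 2 and 6 female pool 4. In groups chosen without sight of the values, chance gives such a gap in about 1 of 20. Some of these genes were named after their values were seen, so the 15 cannot be set against that rate. In female pool 2 these were Ptgds at 317 (the other female libraries 57.3 to 95.7), Srd5a2 at 0.254 (0 in the others), Ptgfr at 8.16 (3.58 to 4.00), Ptgfrn at 9.64 (6.63 to 6.89), Igfbp6 at 33.2 (12.1 to 14.997), Vgf at 70.9 (115 to 121) and the summed skeletal muscle markers at 593 (38.0 to 64.6). In female pool 4 Rpl10a was low at 272 (358 to 363 in the others), Esr2 at 0.599 (1.46 to 1.53) and Gm4613 at 0 (59.4 to 63.5). In the same library Chka was high at 68.7 (35.0 to 39.0), Prlr at 3.19 (1.68 to 1.82) and Gm24865 at 17.3 (0.104 to 0.153). In female pool 1 Sprr1a was at 0.808 (0 to 0.101), and in male pool 1 Samhd1 at 14.8 (13.4 to 13.5). For Ep400 the interaction of sex and fraction passed, at 0.96 on the log2 scale. With 1 pool left out it passed only when that was female pool 4, and it did not pass with the deposited TPM.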

How the results depend on the processing

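Of 1441 differences of 73 genes under the alternatives, 1363 kept their direction and side of the threshold. With the IP libraries, 1 gene passed with the deposited TPM (Srd5a2), 1 with all chromosomes in the fit (Gm527), 2 with library weights (both), 6 with female pools 2 and 4 left out, an alternative chosen after seeing the data, and 0 to 4 with 1 library left out (4 without female pool 4, 1 each without female pool 1, female pool 3 and male pool 3, and 0 without female pool 2 and the other 3). In whole-ganglion RNA 1 passed with the deposited TPM and 0 to 3 with 1 library left out (1, 2 and 3 without female pool 1, female pool 3 and male pool 4). For the interaction 7 passed with the deposited TPM and 0 to 3 with 1 pool left out (3 without female pool 4, 2 without female pool 1, 0 without female pools 2 and 3 and male pools 1 and 4). No gene passed by quantile normalization, scaling over protein-coding genes, pseudocounts of 0.1 and 5, no filter, a minimum of 5 TPM, or glial markers as a covariate. Genes without overlap, 251 in the 8 libraries, numbered 421 with no filter, 165 at a minimum of 5 TPM, 130 with the deposited TPM and 384 to 696 with 1 library left out, and those at an unadjusted p under 0.05 numbered 745 with no filter, 214 with the deposited TPM and 216 to 437 with 1 library left out. In whole-ganglion RNA 239 genes lay higher in female and 14 higher in male libraries without overlap with the deposited TPM, against 193 and 221 with scaling. The difference in protein-coding share was -11.5 to -0.595 percentage points with 1 library left out.

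Same-numbered female and male pools were not paired in the main fits. In the IP libraries the correlation of deviations was over 0.1 in 1 of 4 such pairs, and 0 libraries correlated best with their own number. With 4 pairs this cannot show that same-numbered pools were handled apart. With the replicate block 0 genes passed in either fraction and 275 had an unadjusted p under 0.05 in IP, and without the pool block the interaction still passed for 1 gene.

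The difference of 21 of these genes changed sign under some setting. It did so with the deposited TPM Abcc4 (-0.048), Ptger3 (-0.070), Ptger2 (-0.050), Ptges2 (-0.11), Ptger1 (-0.11), Srd5a3 (-0.036) and Pgr (-0.032), with quantile normalization Scn10a (0.061), Ptger2 (-0.012), Ptges2 (-0.025), Ptger1 (-0.034) and Pgr (-0.012), with scaling over protein-coding genes Ptger1 (-0.00041). It also did so with no filter Ptges2 (-0.0021) and Ptger1 (-0.0092), at a minimum of 5 TPM Pla2g6 (0.0026), with library weights Scn10a (0.093), Ptges3 (0.00051), Ptgdr (0.032), Pla2g6 (0.023), Pgr (-0.036) and Prlr (-0.041), with the glial covariate Scn10a (0.044), Ptgdr (0.0068) and Pla2g6 (0.0023), without female pools 2 and 4 Scn10a (0.15), Ptges (-0.042), Ptger4 (0.063), Ptgdr (0.084), Malat1 (-0.17), Nr4a1 (-0.26) and Prlr (-0.032). With 1 library left out the ranges were Esr1 -0.18 to 0.0069, Nr4a1 -0.065 to 0.38, Pgr -0.028 to 0.10, Pla2g6 -0.076 to 0.042, Prlr -0.067 to 0.25, Ptgdr -0.085 to 0.046, Ptger1 -0.059 to 0.059, Ptger2 -0.056 to 0.067, Ptger3 -0.043 to 0.20, Ptger4 -0.15 to 0.012, Ptges2 -0.065 to 0.099, Ptges3 -0.15 to 0.0064, Ptgfr -0.27 to 0.067, Ptgfrn -0.22 to 0.0063, Ptgr2 -0.29 to 0.048, Rpl10a -0.012 to 0.34 and Scn10a -0.098 to 0.13. Of 680 list medians 25 moved by more than the spread. The causes were not tested, and the unknown depth limits what can be said of low genes.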

Other observations

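Some of the largest differences were in entries near 0 in some libraries and at a similar level in the others. Of the 50 entries with a difference of at least 1 log2 unit, 26 were not protein-coding, and 15 were listed at 0 in at least 1 of the 8 libraries. The processed pseudogene Gm4613 was at 63.5, 59.4 and 59.4 in female pools 1 to 3 and at 0 in female pool 4 and all male pools. Without female pool 4 its difference was 5.98 ± 0.09 (limma adjusted p = 7.29e-08), while with all 8 libraries it did not pass. That fit leaves out the only female library at 0, so nothing is read from its p. The histone entry Hist2h2aa1 was at 46.7 and 45.5 in male pools 1 and 2 and at 0 in the other 6 libraries, and Gm20431 at 39.2 and 41.6 in female pools 1 and 3 and at 0 in the other 6. The short entry Gm24865 was at 15.9 to 22.2 in the male pools and 17.3 in female pool 4, and at 0.104 to 0.153 in the other female pools. These 4 entries were chosen after their values were seen. Gm4613, Hist2h2aa1 and Gm20431 were at 0 in every library of 1 sex and met the filter on low values only through the other.

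Nuclear long noncoding RNAs varied within each sex. Malat1, an abundant RNA kept in the nucleus, was at 225, 1312 and 158 in female pools 1 to 3 and 476 in female pool 4, and at 262, 538, 251 and 57.0 in male pools 1 to 4. It was highest in female pool 2 and lowest in male pool 4, the libraries with the lowest and the highest protein-coding share. Meg3, another such RNA, was at 97.0 and 8.00 in those 2 libraries and at 23.04 to 69.6 in the other 6. The median difference of the 13 tested genes of this list was 0.25, and 0.08 without female pool 2.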
